A study of Mus musculus with 11 samples.

Results

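The S100A genes encode small calcium-binding proteins, and 9 of them were followed by their symbols through the expression table of a mouse glioma study: S100a1, S100a4, S100a6, S100a8, S100a9, S100a10, S100a11, S100a13 and S100a16. These 9 rows stand among 24320 gene rows, and each of the 9 was found and passed the filter for testing. Tumors had been started in newborn mice by injecting plasmids into the right lateral ventricle. Every tumor received plasmids for the Sleeping Beauty (SB) transposase, which moves plasmid inserts into host DNA, for firefly luciferase as a light reporter, and for the SV40 large T antigen, which binds p53 and Rb. The tumor groups differed in the last plasmid. NRAS tumors (n = 4, NRAS tumors 1 to 4) carried nRas-G12V, a constitutively active form of the small GTPase NRAS, and PDGFB tumors (n = 4, PDGFB tumors 1 to 4) overexpressed PDGFB, a growth factor of oligodendrocyte progenitors. Normal brain (n = 3, normal brains 1 to 3) was labelled as a wild-type control, so it lacks large T as well as the drivers, and a tumor against normal brain compares large T and driver together. Tumors were taken at a middle stage of growth and the GFP-positive region was cut out. The labels give strain B6 for all samples except normal brain 3, which is FVB, whereas the series text names FVB for the injected mice. Animal age at collection and the promoters on the plasmids are not given. By their titles, normal brain 1 is matched to NRAS tumor 2, and PDGFB tumor 1 has its match in normal brain 3. No label says whether each sample is its own animal, and the p-values therefore cover the spread between these samples only.

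S100 proteins bind calcium through a pair of EF-hand loops and, as dimers, dock onto target proteins inside the cell. Several are also released and act on receptors such as RAGE (Ager) and TLR4. In the brain S100b is the best known member, a product of astrocytes, while S100a8 and S100a9 together form calprotectin, an abundant protein of neutrophils and of some monocytes. S100a10 is the exception of the family in that its loops no longer bind calcium; it is held in a complex with annexin A2. Several members, S100a4 among them, have been studied for their part in cell movement and tumor spread.

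In NRAS tumors 8 of the 9 S100A genes were higher than in normal brain and none was lower, with S100a11, S100a6, S100a4 and S100a10 showing the 4 largest changes. Among all 14491 genes tested, 32.0% were called higher in that comparison and 30.3% lower. The median log2 fold change was 1.59 over the 9 genes, against 0.01 over all genes tested. In PDGFB tumors S100a4 and S100a11 were higher than in normal brain, so 2 of 9 were higher and none was lower, where 29.3% of all genes were called higher and 29.2% lower. Both of these calls were lost (0 of 9 higher) with the number series in the sample titles as a covariate, a series that PDGFB tumors and normal brain do not share. The median over the 9 genes was 0.53 there, against 0.04 over all genes. In NRAS tumors against PDGFB tumors S100a4, S100a6, S100a10, S100a11 and S100a16 were higher, 5 of 9 with none lower, where 14.3% of all genes were called higher and 12.2% lower. The median over the 9 genes was 1.14 in that comparison, against -0.04 over all genes. At an unadjusted p under 0.05 the members higher were 8, 4 and 6 in these comparisons, and 0 were lower in each. Calls are from limma, adjusted by Benjamini-Hochberg over the whole table of tested genes, at an adjusted p under 0.05. Fold changes are on the log2(FPKM + 1) scale, which understates changes of low genes. Both tumor groups were set against the same 3 normal brains, so those comparisons share samples. S100a8 and S100a9 reached 1 FPKM in tumors only, and so entered the test through the tumors. These are pieces of whole tissue, in which fewer cells of a type and less RNA per cell cannot be told apart.

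**Figure D1:**
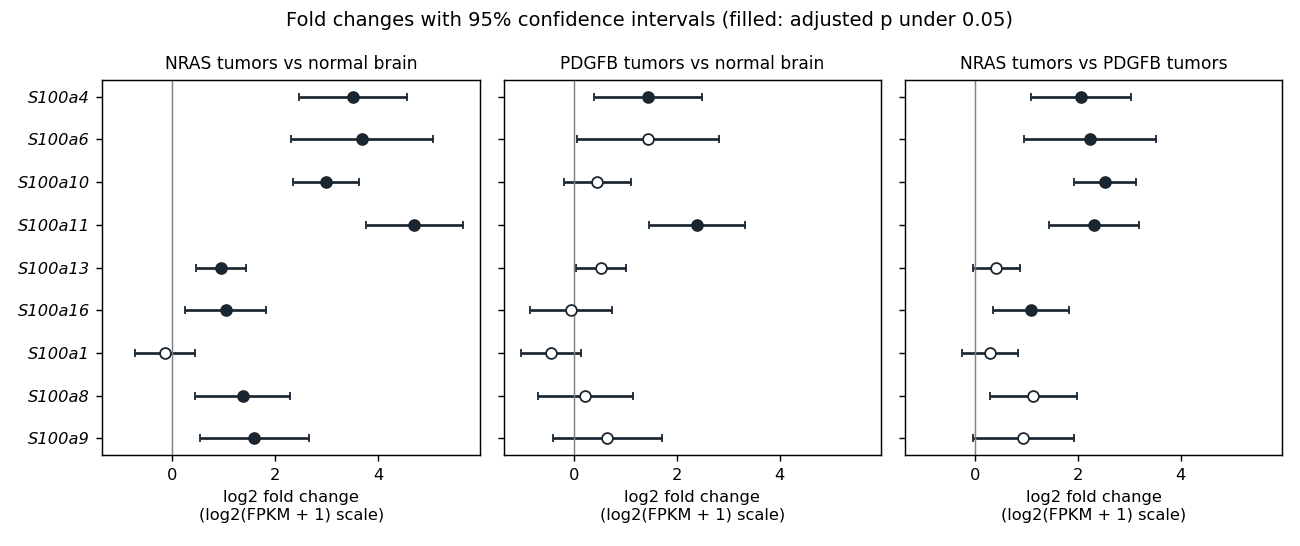
Change of each S100A gene as a difference in log2(FPKM + 1) (x axis) in 3 comparisons, with 95% confidence intervals (not adjusted for the number of genes) and filled points where the adjusted p was under 0.05. Points lie to the right of 0 for 8 genes in NRAS tumors against normal brain, and the point of S100a1 lies to the left.

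The plot of fold changes shows that the intervals of S100a4, S100a6, S100a10 and S100a11 lay above 0 both in NRAS tumors against normal brain and in NRAS tumors against PDGFB tumors. S100a6 and S100a13 in PDGFB tumors against normal brain had intervals above 0 before adjustment, and missed the threshold after it.

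All 9 genes lie on mouse chromosome 3 (GRCm38.p6, the mm10 assembly that the submitters' notes name). From left to right, S100a1 (90511034 to 90514330, minus strand), S100a13 (90514233 to 90524581), S100a16 (90537254 to 90543151), S100a4 (90603770 to 90606045), S100a6 (90612894 to 90614414), S100a8 (90669071 to 90670034) and S100a9 (90692630 to 90695721, minus strand) fill 184.7 kb. After a gap of 2.82 Mb come S100a11 (93520496 to 93526288) and S100a10 (93555117 to 93564645) within 44.2 kb. Genes without a strand given here are on the plus strand. S100a1 and S100a13 overlap by 98 bases on opposite strands. The sources do not say that the libraries kept strand, so reads from the overlap could not be told apart.

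Promoter sequences of RefSeq (GRCm38.p6), 250 bases before to 50 after the annotated gene start, were matched for 8 of the 9 genes, S100a16 having 2 windows; S100a10 was not matched. They were searched on both strands for the AP-1 motif TGANTCA, the TATA motif TATAAA, the GC box GGGCGG and the TEAD motif GGAATG. The windows shown are those of the member with the largest change (S100a11), of the neighbouring pair S100a4 and S100a6, which followed each other most closely over the libraries, and of the head-to-head pair S100a1 and S100a13, of which one changed in NRAS tumors. Capitals mark matches to AP-1, TATA and GC box, and each window is written 5′ to 3′ on the strand of its gene.
S100a11, chr3:93520246-93520545, plus strand: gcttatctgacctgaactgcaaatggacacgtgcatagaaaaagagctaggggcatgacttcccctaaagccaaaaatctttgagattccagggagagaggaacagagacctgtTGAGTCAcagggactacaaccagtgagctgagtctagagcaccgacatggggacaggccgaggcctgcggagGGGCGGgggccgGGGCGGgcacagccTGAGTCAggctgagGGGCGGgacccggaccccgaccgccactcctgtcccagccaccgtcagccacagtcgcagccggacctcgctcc
S100a4, chr3:90603520-90603819, plus strand: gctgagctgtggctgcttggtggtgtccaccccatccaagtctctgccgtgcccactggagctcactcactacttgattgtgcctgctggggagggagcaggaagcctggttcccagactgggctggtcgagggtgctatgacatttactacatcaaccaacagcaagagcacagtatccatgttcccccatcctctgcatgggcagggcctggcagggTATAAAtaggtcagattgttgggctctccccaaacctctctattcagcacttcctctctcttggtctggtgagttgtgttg
S100a6, chr3:90612644-90612943, plus strand: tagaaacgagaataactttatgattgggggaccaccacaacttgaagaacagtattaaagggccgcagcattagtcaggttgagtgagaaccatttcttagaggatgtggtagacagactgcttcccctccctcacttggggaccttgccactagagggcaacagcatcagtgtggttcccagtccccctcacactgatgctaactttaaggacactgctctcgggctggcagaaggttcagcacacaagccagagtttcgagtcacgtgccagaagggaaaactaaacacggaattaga
S100a1, chr3:90514281-90514580, minus strand: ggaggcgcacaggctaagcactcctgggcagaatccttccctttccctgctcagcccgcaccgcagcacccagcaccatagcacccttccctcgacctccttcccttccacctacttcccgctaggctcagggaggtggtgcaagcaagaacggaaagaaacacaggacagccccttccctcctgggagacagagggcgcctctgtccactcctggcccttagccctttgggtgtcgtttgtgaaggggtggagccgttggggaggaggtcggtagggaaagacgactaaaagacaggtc
S100a13, chr3:90514185-90514484, plus strand: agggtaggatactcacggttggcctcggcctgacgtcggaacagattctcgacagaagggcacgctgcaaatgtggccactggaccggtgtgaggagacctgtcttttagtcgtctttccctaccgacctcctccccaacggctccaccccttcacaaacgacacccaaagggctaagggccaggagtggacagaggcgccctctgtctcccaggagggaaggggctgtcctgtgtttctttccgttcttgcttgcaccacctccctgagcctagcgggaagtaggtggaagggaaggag

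The S100a11 window held the AP-1 letters at 2 places, 136 and 38 bases before the start, and 3 GC boxes. AP-1 letters were also found in the S100a16 window inside the gene (90540896 to 90541195), 192 bases before the start of that window's transcript. The S100a16 window at the gene start (90537004 to 90537303) held none of the 4 motifs. So 2 of the 8 genes held AP-1 letters, against 7.81% of 32851 promoter windows of the same length. The 8 genes had 9 windows, so counts by gene here are set against shares by window. The S100a4 window held TATAAA 31 bases before the start, as the windows of S100a8 (30 bases before) and S100a9 (at the annotated start) also did, that is 3 of 8 genes against 13.62% of all windows. GC boxes were in 3 of 8 genes (S100a9, S100a11 and S100a16, the last only in its window inside the gene), against 35.66% of all windows. The TEAD letters were in none of the 8, against 14.66%. Windows of S100a1 and S100a13 overlap by 204 bases, and none of the 4 motifs was found in either of them or in the S100a6 window. A match describes letters in the window and is not a measured binding site.

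S100a11 and S100a10 are the members best known as annexin partners, S100a11 with annexin A1 and S100a10 with annexin A2. S100a11 was at 325, 269, 219.6 and 944 FPKM in NRAS tumors, at 66.1, 53.0, 72.4 and 113 FPKM in PDGFB tumors, and at 14.8, 13.2 and 11.6 FPKM in normal brains, each group in the order of its library numbers, as for every gene that follows. The 3 groups did not overlap, and NRAS tumor 4 stood far above the other NRAS tumors. With the tumors higher, 33.2% of all genes did not overlap between NRAS tumors and normal brain, and 33.8% between PDGFB tumors and normal brain. With NRAS tumors higher, 12.9% did not overlap between NRAS and PDGFB tumors. The log2 fold change was 4.70 ± 0.43 (SE) in NRAS tumors against normal brain (limma adjusted p = 1.71e-05), which ranks 64 from the top of 14491 genes. It was 2.39 ± 0.43 in PDGFB tumors against normal brain (adjusted p = 0.000778, and 1.77 with adjusted p = 0.0720 with a term for the title number series) and 2.31 ± 0.39 in NRAS tumors against PDGFB tumors (adjusted p = 0.00235). Without NRAS tumor 4 these were 4.25 against normal brain and 1.86 against PDGFB tumors, both called. A pseudogene of S100a11 is annotated elsewhere in the genome, and how the authors' counting shared reads with it is not given.

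S100a10 was at 236, 257, 177 and 311 FPKM in NRAS tumors, at 27.3, 45.9, 38.7 and 58.1 FPKM in PDGFB tumors, and at 37.0, 36.4 and 19.0 FPKM in normal brains. Every NRAS tumor lay above every other library, while PDGFB tumors and normal brains overlapped. With NRAS tumors higher, NRAS and PDGFB tumors did not overlap for 12.9% of all genes. S100a10 changed by 2.98 ± 0.29 in NRAS tumors against normal brain (adjusted p = 2.74e-05) and 2.52 ± 0.27 against PDGFB tumors (adjusted p = 0.000296). In PDGFB tumors against normal brain it was 0.46, with a 95% interval from -0.18 to 1.11 (adjusted p = 0.199). For S100a10 the interval in PDGFB tumors ended below the one in NRAS tumors. The ratio of S100a11 to S100a10 in FPKM was 1.68 ± 0.92 (SD, n = 4) in NRAS tumors, 1.85 ± 0.52 (n = 4) in PDGFB tumors and 0.458 ± 0.133 (n = 3) in normal brain.

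S100a4, which binds nonmuscle myosin IIA (Myh9), and S100a6, or calcyclin, which binds the calcyclin-binding protein (Cacybp), lie next to each other apart from S100a5. S100a4 was at 67.7, 36.7, 53.5 and 138 FPKM in NRAS tumors, at 12.2, 7.11, 19.4 and 28.2 FPKM in PDGFB tumors, and at 3.99, 7.12 and 3.85 FPKM in normal brains. NRAS tumors did not overlap the other groups, and PDGFB tumor 2 lay just under normal brain 2. With NRAS tumors higher, 33.2% of all genes did not overlap against normal brain and 12.9% against PDGFB tumors. The log2 fold change was 3.52 ± 0.48 in NRAS tumors against normal brain (adjusted p = 0.000189), 1.45 ± 0.48 in PDGFB tumors against normal brain (adjusted p = 0.0220) and 2.07 ± 0.44 in NRAS tumors against PDGFB tumors (adjusted p = 0.00682). For PDGFB tumors against normal brain the change was 0.68 (adjusted p = 0.510) with a term for the title number series. That call also rested on single libraries: the adjusted p was 0.0536 without PDGFB tumor 3, 0.0576 without PDGFB tumor 4, 0.0713 without normal brain 1 and 0.0754 without normal brain 3.

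S100a6 was at 424, 86.5, 129.9 and 586 FPKM in NRAS tumors, at 52.2, 21.0, 55.7 and 86.6 FPKM in PDGFB tumors, and at 16.6, 18.0 and 16.3 FPKM in normal brains. NRAS tumors 1 and 4 were high and NRAS tumors 2 and 3 lower, with NRAS tumor 2 level with PDGFB tumor 4, while normal brain lay below every tumor. The log2 fold change was 3.69 ± 0.63 in NRAS tumors against normal brain (adjusted p = 0.000639) and 2.23 ± 0.58 against PDGFB tumors (adjusted p = 0.0165). In PDGFB tumors against normal brain it was 1.45 ± 0.63 and was not called (adjusted p = 0.0669), although the groups did not overlap, as held for 33.8% of all genes with the tumors higher. It was called in 4 of 21 other settings, with a smallest limma adjusted p of 0.0111. Among these, the adjusted p was 0.0274 without PDGFB tumor 2, 0.0333 without NRAS tumor 2 and 0.0396 without NRAS tumor 4. The NRAS tumors enter there through the shared spread.

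S100a13, which takes part in the release of FGF1, was at 73.9, 48.2, 59.4 and 56.9 FPKM in NRAS tumors, at 40.2, 35.7, 36.9 and 70.7 FPKM in PDGFB tumors, and at 28.5, 31.6 and 30.6 FPKM in normal brains. Normal brain lay below every tumor, and PDGFB tumor 4 lay among the NRAS tumors. Normal brain lay below every NRAS tumor for 33.2% of all genes, and below every PDGFB tumor for 33.8%. For S100a13 the log2 fold change was 0.94 ± 0.22 in NRAS tumors against normal brain (adjusted p = 0.00393). It was 0.53 ± 0.22 in PDGFB tumors against normal brain (adjusted p = 0.0613, and 0.0433 without PDGFB tumor 2) and 0.41 ± 0.21 in NRAS tumors against PDGFB tumors (adjusted p = 0.166, and 0.00958 without PDGFB tumor 4).

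S100a16, a widely expressed member, was at 151, 119, 146 and 64.5 FPKM in NRAS tumors, at 47.9, 31.0, 56.1 and 94.3 FPKM in PDGFB tumors, and at 63.2, 47.2 and 56.1 FPKM in normal brains. NRAS tumors 1 to 3 stood above all other libraries, and NRAS tumor 4, the highest library for S100a4, S100a6, S100a8, S100a10 and S100a11, was the lowest NRAS tumor here and only just above normal brain 1. The log2 fold change was 1.04 ± 0.36 in NRAS tumors against normal brain (adjusted p = 0.0265) and 1.09 ± 0.33 against PDGFB tumors (adjusted p = 0.0326). Both calls rested on single libraries. Against normal brain the adjusted p was 0.0671 without NRAS tumor 1, 0.0659 without NRAS tumor 3, 0.0886 without normal brain 2 and 0.0627 without normal brain 3. Against PDGFB tumors it ran from 0.0531 to 0.0878 with any one of NRAS tumors 1, 2 and 3 and PDGFB tumors 1, 2 and 3 left out. In PDGFB tumors against normal brain the change was -0.05, with an interval from -0.84 to 0.74 (adjusted p = 0.909).

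S100a1, known from heart muscle, where it acts on the ryanodine receptor and the calcium pump SERCA (Atp2a2), was at 148, 123, 78.0 and 127 FPKM in NRAS tumors, at 103.6, 59.2, 95.2 and 135 FPKM in PDGFB tumors, and at 133, 126 and 126 FPKM in normal brains. All 3 groups overlapped. Its log2 fold change was -0.15 in NRAS tumors against normal brain (95% interval -0.73 to 0.44, adjusted p = 0.644), -0.44 in PDGFB tumors against normal brain (-1.03 to 0.14, adjusted p = 0.175) and 0.29 in NRAS tumors against PDGFB tumors (-0.25 to 0.83, adjusted p = 0.414). S100a1 was the 1 member with no call in any of the 3 comparisons. With its head-to-head neighbour S100a13 it formed a ratio of 2.02 ± 0.52 (SD, n = 4) in NRAS tumors, 2.18 ± 0.47 (n = 4) in PDGFB tumors and 4.27 ± 0.36 (n = 3) in normal brain.

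**Figure D2:**
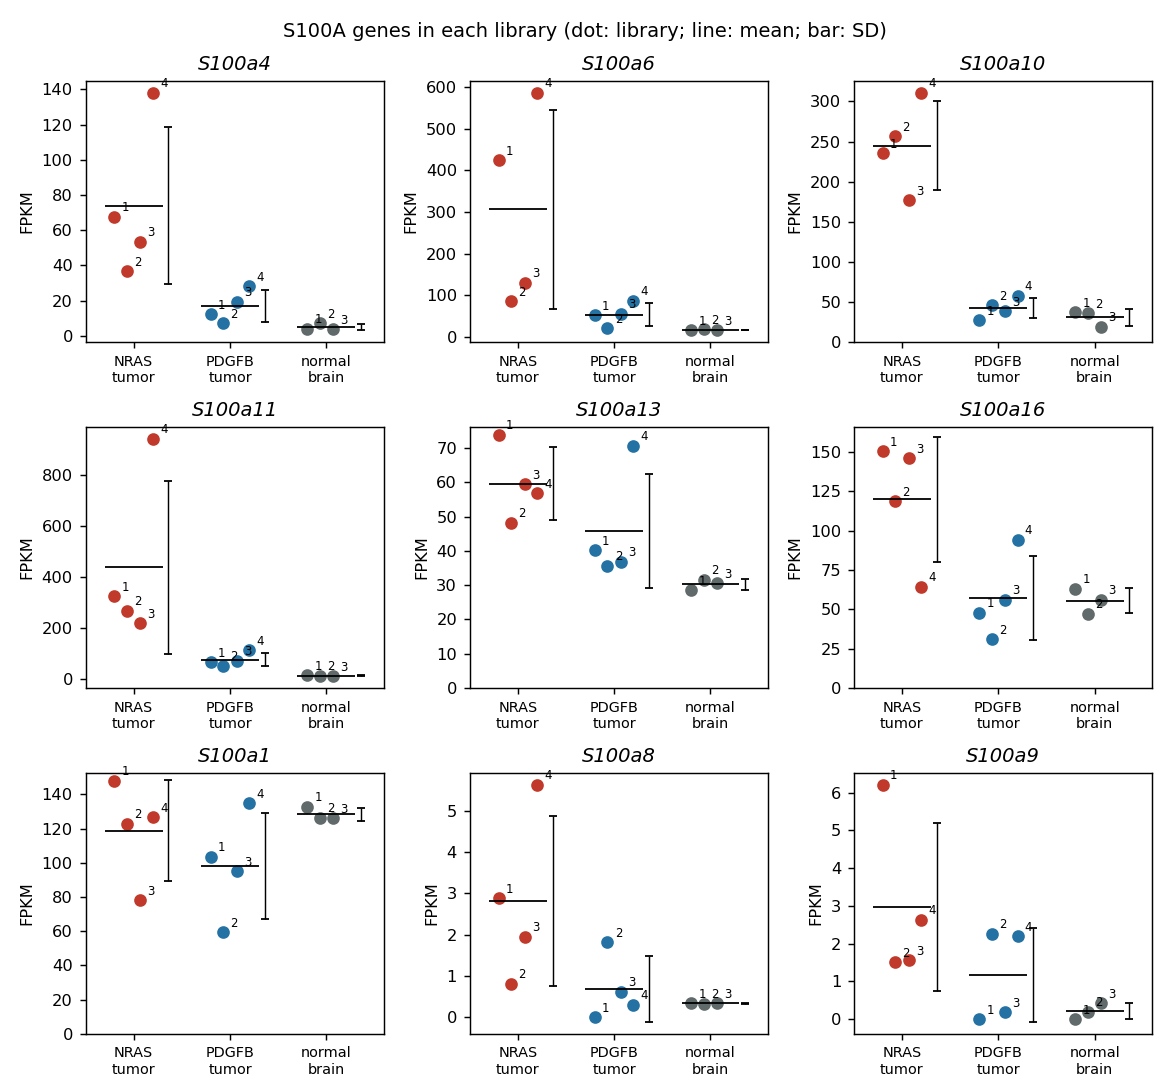
FPKM (y axis, linear, a separate range per gene) of the 9 S100A genes in NRAS tumors, PDGFB tumors and normal brain; each numbered dot is a library, the line is the mean and the bar the SD (n = 4, 4 and 3). NRAS tumors lie above all other libraries for S100a4, S100a10 and S100a11, and NRAS tumor 4 is the top dot for S100a4, S100a6, S100a8, S100a10 and S100a11 and the lowest NRAS tumor for S100a16.

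S100a8 and S100a9, the calprotectin pair, were the lowest members in every group by mean FPKM. S100a8 was at 2.89, 0.805, 1.95 and 5.64 FPKM in NRAS tumors, at 0, 1.82, 0.610 and 0.295 FPKM in PDGFB tumors, and at 0.331, 0.322 and 0.338 FPKM in normal brains. Low FPKM values fall on whole steps, each taken as what 1 fragment is worth. A step was accepted at a tolerance of 0.1 of a step, widened with the largest number of steps. The S100a8 values came to 11, 3, 7 and 20 steps in NRAS tumors, 0, 6, 2 and 1 in PDGFB tumors, and 1, 1 and 1 in normal brains. Each lay within 0.1 of a whole step. Normal brain thus rested on 3 steps in all.

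S100a9 was at 6.21, 1.502, 1.56 and 2.63 FPKM in NRAS tumors, at 0, 2.26, 0.190 and 2.2004 FPKM in PDGFB tumors, and at 0, 0.200 and 0.420 FPKM in normal brains, or 38, 9, 9 and 15 steps in NRAS tumors, 0, 12, 1 and 12 in PDGFB tumors, and 0, 1 and 2 in normal brains. For both genes every NRAS tumor lay above every normal brain, as held for 33.2% of all genes, while PDGFB tumors overlapped both other groups. In NRAS tumors against normal brain the log2 fold change was 1.36 ± 0.42 for S100a8 (adjusted p = 0.0152, and 0.0602 with quantile normalization and 0.106 with a term for the title number series) and 1.59 ± 0.48 for S100a9 (adjusted p = 0.0142, and 0.0521 without normal brain 1). These fitted values depend on the pseudocount: with 0.1 in place of 1 they were 2.46 and 3.38. The ratio of summed steps per relative depth was 8.46 for S100a8 (exact binomial 95% interval 2.70 to 42.7, counting error only) and 14.6 for S100a9 (4.81 to 72.7) in NRAS tumors against normal brain. In PDGFB tumors against normal brain it was 2.06 (0.514 to 11.8) for S100a8 and 5.73 (1.75 to 29.6) for S100a9. Between NRAS and PDGFB tumors it was 4.10 (1.96 to 9.60) for S100a8 and 2.56 (1.60 to 4.21) for S100a9. These intervals leave out the spread between libraries, which the fit includes. In the limma fit of NRAS tumors against PDGFB tumors neither gene passed, with 1.14 ± 0.39 for S100a8 (adjusted p = 0.0509) and 0.94 ± 0.45 for S100a9 (adjusted p = 0.146). The S100a8 comparison passed in 4 of 21 other settings. These included NRAS tumor 2 left out (adjusted p = 0.0112, the smallest) and PDGFB tumor 2 left out (adjusted p = 0.0223). In PDGFB tumors against normal brain the fitted changes were 0.23 for S100a8 (interval -0.69 to 1.15, adjusted p = 0.666) and 0.65 for S100a9 (interval -0.41 to 1.71, adjusted p = 0.269).

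Neutrophil markers were read beside this pair. Of 15 listed genes 14 were in the table and 3 reached the filter (Retnlg, Csf3r and Lcn2). Retnlg and Lcn2 reached 1 FPKM in tumors only, so they too entered the test through the tumors. Each of the 3 was called higher in NRAS tumors against normal brain, and the other 11 were too low to test. The 14 genes together gave 250.5, 21.1, 733 and 108 FPKM in NRAS tumors, from 6.15 up to 74.6 FPKM in PDGFB tumors, and from 3.32 up to 3.98 FPKM in normal brain. Most of the NRAS sums was Lcn2, an acute-phase protein that glia also make. Retnlg, a neutrophil gene, was at 19.2, 3.23, 49.2 and 8.34 FPKM in NRAS tumors, at 0 to 0.887 FPKM in PDGFB tumors, and at 0 to 0.169 FPKM in normal brain. The granule genes were near 0 (Mpo at most 0.442 FPKM and Camp at most 0.570 FPKM in NRAS tumors, and Elane at 0 in all libraries). The order of the NRAS tumors differed between genes, S100a8 being highest in tumor 4, S100a9 in tumor 1 and Retnlg in tumor 3. In PDGFB tumors 1 of the 3 tested markers (Lcn2) was called higher against normal brain, and 2 (Retnlg and Csf3r) were called higher in NRAS tumors than in PDGFB tumors. Of all genes, 32.0% were called higher in NRAS tumors and 29.3% in PDGFB tumors, each against normal brain. Between NRAS and PDGFB tumors, 14.3% were called higher in NRAS tumors. The part of neutrophils in the S100a8 and S100a9 values was not tested.

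**Figure D3:**
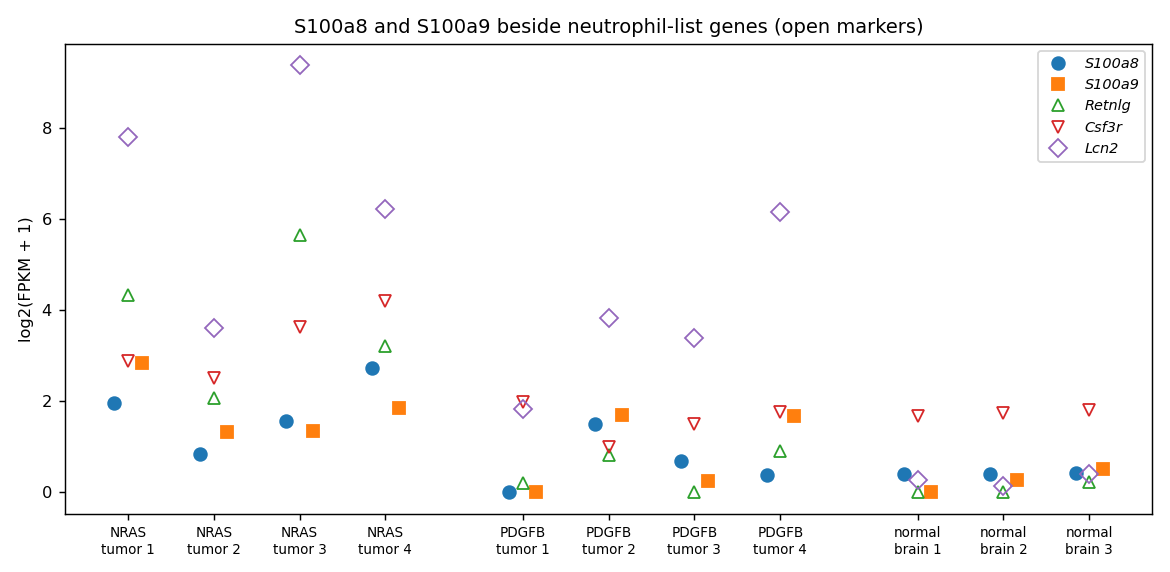
S100a8 and S100a9 (filled) and the 3 tested neutrophil-list genes Retnlg, Csf3r and Lcn2 (open) as log2(FPKM + 1) (y axis) in each of the 11 libraries (x axis). S100a8 and S100a9 stay under the Lcn2 marker in every NRAS tumor, and PDGFB tumor 1 lists both at 0.

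Monocyte and macrophage markers differed between the same groups. The 14 listed genes, all tested, summed to 982, 291, 1281 and 2093 FPKM in NRAS tumors 1 to 4, to between 112 and 155 FPKM in PDGFB tumors, and to between 28.0 and 34.4 FPKM in normal brain. The top place of NRAS tumor 4 in this sum came from 1 gene, Lyz2, a lysozyme gene, at 371, 71.1, 189 and 1546 FPKM in NRAS tumors. Without Lyz2 the other 13 genes summed to 611, 220.3, 1092 and 547 FPKM in NRAS tumors, so NRAS tumor 3 was highest. They summed to between 81.4 and 101.6 FPKM in PDGFB tumors, and to between 21.0 and 28.3 FPKM in normal brain. In PDGFB tumors most of that sum was Fn1 (34.0 to 57.1 FPKM) and Vcan (24.5 to 51.7 FPKM). The same 2 genes made up most of it in normal brain (8.08 to 14.1 and 5.39 to 7.05 FPKM). NRAS tumor 2 was lowest with or without Lyz2, as it was for S100a4, S100a6, S100a8 and S100a9. S100a10 and S100a11 were lowest in NRAS tumor 3, which was second with Lyz2 and first without it. Against normal brain 12 of the 14 were called higher in NRAS tumors, and 3 higher (Lyz2, Fn1 and Vcan) and 1 lower (F13a1) in PDGFB tumors. Of all genes, 32.0% were called higher in NRAS tumors, and 29.3% higher and 29.2% lower in PDGFB tumors. Against PDGFB tumors 12 were called higher in NRAS tumors, where 14.3% of all genes were. Chil3 and Ms4a4c were at 0 in all normal brains, and the others were not. Ly6c2, Ccr2, Plac8, Chil3, Arg1, Ms4a4c and Itgal reached 1 FPKM in tumors only, and so entered the test through the tumors. Their part in the S100A values was not tested.

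The make-up of the S100A message differed between groups. Summed over the 9 genes, the level was 1434, 941, 867 and 2235 FPKM in NRAS tumors, 349.6, 257, 375 and 588 FPKM in PDGFB tumors, and 297, 280.3 and 264 FPKM in normal brains. S100a1 made up 9.51% ± 3.07 (SD, n = 4) of the sum in NRAS tumors, 25.2% ± 3.14 (n = 4) in PDGFB tumors and 45.8% ± 1.67 (n = 3) in normal brain. S100a11 made up 29.7% ± 8.70 in NRAS tumors, 19.5% ± 0.756 in PDGFB tumors and 4.69% ± 0.303 in normal brain. Together S100a4, S100a6, S100a10 and S100a11, grouped after their values were seen, held 66.9% to 88.5% of the sum in NRAS tumors, 45.2% to 49.6% in PDGFB tumors and 19.2% to 26.6% in normal brain. The level of S100a1 itself was not called different in any of the 3 comparisons.

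**Figure D4:**
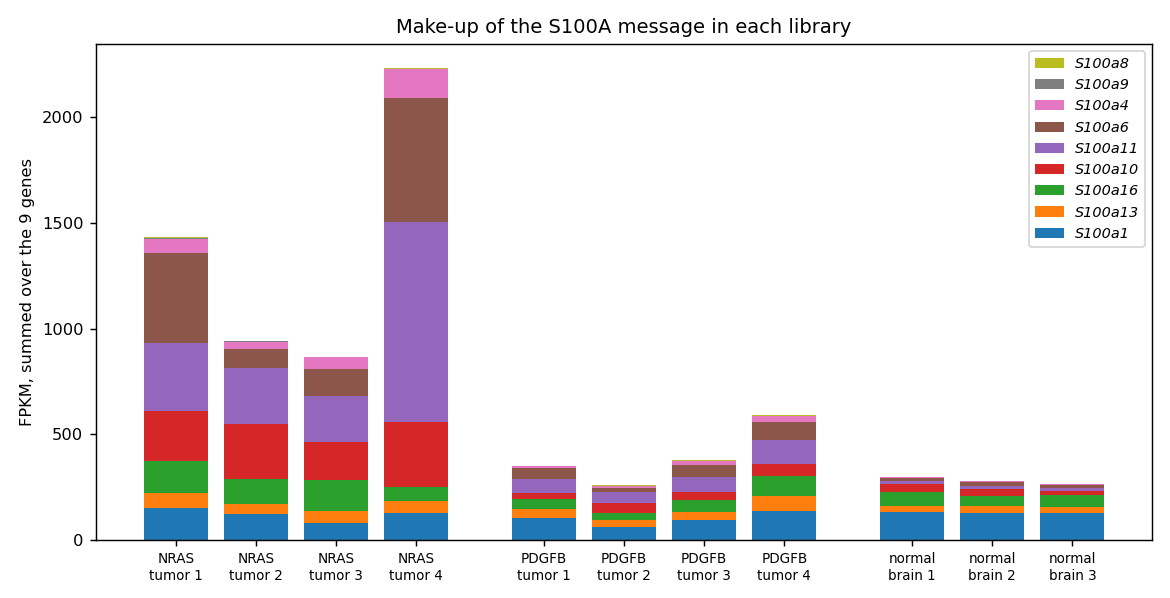
FPKM summed over the 9 S100A genes (y axis), split by gene, in each of the 11 libraries (x axis). The bars of NRAS tumors reach 867 to 2235 FPKM, those of PDGFB tumors 257 to 588 FPKM and those of normal brain 264 to 297 FPKM, where the S100a1 block is the largest.

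FPKM is scaled by length, so levels of different members can be ordered within a group. By mean FPKM the order in NRAS tumors was S100a11 (439), S100a6 (307), S100a10 (245), S100a16 (119.99), S100a1 (119), S100a4 (74.0), S100a13 (59.6), S100a9 (2.98) and S100a8 (2.82). Only S100a10 over S100a16 and S100a13 over S100a9 held in all 4 NRAS tumors between neighbours in that order. In PDGFB tumors S100a1 was first (98.2), followed by S100a11 (76.2), S100a16 (57.3), S100a6 (53.9), S100a13 (45.9), S100a10 (42.5), S100a4 (16.7), S100a9 (1.16) and S100a8 (0.681), with S100a1 over S100a11 and S100a11 over S100a16 holding in all 4, as did S100a10 over S100a4 and S100a4 over S100a9. In normal brain the order was S100a1 (128), S100a16 (55.5), S100a10 (30.8), S100a13 (30.2), S100a6 (17.0), S100a11 (13.2), S100a4 (4.99), S100a8 (0.330) and S100a9 (0.207), in which S100a10 over S100a13 and S100a8 over S100a9 held in 2 of 3 libraries and the other neighbours kept their order in all 3. S100a11 was thus first in NRAS tumors, second in PDGFB tumors and sixth in normal brain.

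The spread within the NRAS group was wide for some members and narrow for others. The highest NRAS tumor was 6.77 times the lowest for S100a6, 4.30 times for S100a11 and 3.76 times for S100a4, and 1.76 times for S100a10. In normal brain the same ratio was 1.10 for S100a6, 1.28 for S100a11, 1.85 for S100a4 and 1.95 for S100a10.

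The neighbours of the S100A genes on chromosome 3 were examined within 100 kb and inside both groups of genes. Of 9 protein-coding neighbours outside the S100 family, 5 were tested: Ints3, Npr1, Ilf2, Snapin and Chtop. All 5 lie to the left of S100a1, and no neighbour beside S100a11 and S100a10 was tested. Against normal brain, NRAS tumors showed 1 call among the 5, Npr1, a natriuretic peptide receptor, with a log2 fold change of 1.08 (adjusted p = 0.00225), and the median was 0.23. Of all genes, 32.0% were called higher in that comparison. In PDGFB tumors against normal brain 4 of the 5 were called higher (Npr1, Chtop, Ilf2 and Ints3) with a median of 0.66, where 29.3% of all genes were. Between NRAS and PDGFB tumors 1 was called lower, Chtop, with a change of -0.55, and the median was -0.21. Of all genes, 12.2% were called lower between these tumors. The changes of S100a4, S100a6, S100a10 and S100a11 in NRAS tumors against normal brain ran from 2.98 to 4.70, above that of each of these 5 genes. S100a10 and S100a11 lie beyond the gap of 2.82 Mb, so the 5 genes are not their own surroundings.

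**Figure D5:**
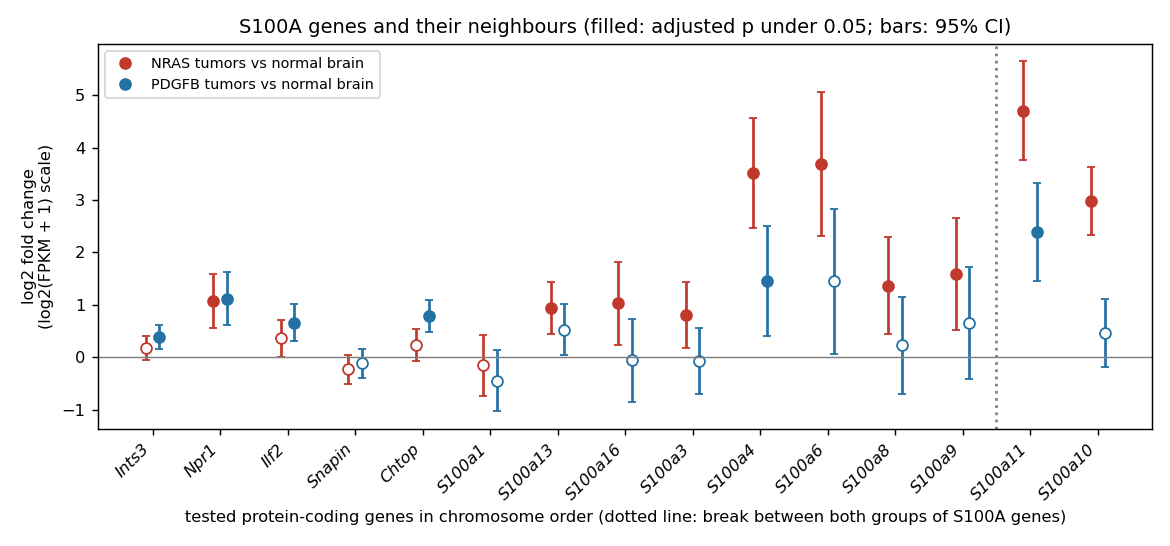
Difference in log2(FPKM + 1) (y axis, bars are 95% intervals) of the tested protein-coding genes in chromosome order (x axis, not to distance), for NRAS tumors and PDGFB tumors, each against normal brain; filled points had an adjusted p under 0.05. S100a4, S100a6, S100a11 and S100a10 stand above the non-S100 neighbours on the left in NRAS tumors.

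Of the other S100 genes tested, S100b was lower in both tumor groups than in normal brain, and S100a3 was higher in NRAS tumors. S100b, the astrocyte member on chromosome 10, was at 29.9, 48.2, 24.2 and 44.0 FPKM in NRAS tumors, at 55.3, 21.4, 49.7 and 80.0 FPKM in PDGFB tumors, and at 140.3, 99.4 and 119 FPKM in normal brains. Normal brain lay above every tumor, and the change of S100b against normal brain was -1.72 for NRAS tumors (adjusted p = 0.00260) and -1.32 for PDGFB tumors (adjusted p = 0.0111). Of all genes, 30.3% were called lower in NRAS tumors and 29.2% in PDGFB tumors. The share of all genes with normal brain above every tumor was not counted. S100a3, which lies beside S100a4, was low at 2.44, 2.49, 2.81 and 1.03 FPKM in NRAS tumors, 1.12, 0.123, 1.11 and 0.596 FPKM in PDGFB tumors, and 1.20, 0.782 and 0.410 FPKM in normal brains. NRAS tumors were called higher for it against normal brain (0.81, adjusted p = 0.0287) and against PDGFB tumors (0.88, adjusted p = 0.0306). Of 8 listed genes, 7 were in the table and 2 were tested; S100a5, S100a7a and S100a14 were too low for the test, and S100g and S100z were listed at 0 in all 11 libraries.

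Partners, targets and receptors of S100 proteins numbered 22, of which 21 were tested. Against normal brain, in NRAS tumors 9 were higher, 5 lower and 7 not called, with a median of 0.30. In PDGFB tumors against normal brain 6 were higher, 6 lower and 9 not called (median -0.37). In NRAS tumors against PDGFB tumors 7 were higher, none lower and 14 not called (median 0.37). Of all genes, 32.0%, 29.3% and 14.3% were called higher and 30.3%, 29.2% and 12.2% lower, in that order of comparisons. Annexin A2 (Anxa2), the partner of S100a10, was at 281, 252, 168 and 767 FPKM in NRAS tumors, at 42.8, 43.6, 52.6 and 64.7 FPKM in PDGFB tumors, and at 15.7, 14.5 and 10.8 FPKM in normal brains. Its groups did not overlap, and its log2 fold changes were 4.42 in NRAS tumors against normal brain (adjusted p = 1.77e-05), 1.82 in PDGFB tumors against normal brain (adjusted p = 0.00274) and 2.60 in NRAS tumors against PDGFB tumors (adjusted p = 0.00110). With the first-named group higher, 33.2%, 33.8% and 12.9% of all genes did not overlap in these comparisons. In the PDGFB tumors, where Anxa2 was higher than in normal brain, S100a10 itself was not called.

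Among the other partners Anxa1, the partner of S100a11, changed against normal brain by 3.16 (adjusted p = 0.00258) in NRAS tumors and by 1.89 (adjusted p = 0.0361) in PDGFB tumors. Plat, the tissue plasminogen activator that the S100a10 and annexin A2 complex binds, changed by 2.88 (adjusted p = 3.90e-05) and by 1.70 (adjusted p = 0.000740) in the same comparisons. Myh9, the myosin bound by S100a4, changed by 1.85 (adjusted p = 0.000567) in NRAS tumors and by 1.21 (adjusted p = 0.00596) in PDGFB tumors. Tlr4, a receptor of calprotectin, spanned 3.54 to 6.18 FPKM in NRAS tumors, 0.906 to 1.17 FPKM in PDGFB tumors and 0.560 to 0.572 FPKM in normal brain. Its change against normal brain was 1.84 for NRAS tumors (adjusted p = 3.29e-05) and 0.36 for PDGFB tumors (adjusted p = 0.117). The receptor gene Ager changed by 0.36 in NRAS tumors (limma adjusted p = 0.111) and by 0.56 in PDGFB tumors (adjusted p = 0.0212), so only the latter was called. Tlr4 and Ager reached 1 FPKM in tumors only, and so entered the test through the tumors. Of the targets linked to S100a1, Ryr2, a ryanodine receptor, changed by -1.80 (adjusted p = 0.00455) in NRAS tumors and by -2.16 (adjusted p = 0.00162) in PDGFB tumors, while S100a1 was called in neither. Syt1, a synaptic vesicle protein that also stands in the neuron list, changed by -2.35 (adjusted p = 0.00875) and by -2.98 (adjusted p = 0.00242) in the same comparisons.

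The genes whose levels followed each member most closely over the 11 libraries were found by the root mean square difference of log2 values after centring each gene, as a description with no test; all libraries share their groups. S100a11 was most like Anxa2 (0.27), Lgals1 (0.32), the gene of galectin 1, and Emp3 (0.48). S100a4 was most like Emp3 (0.32), Lag3 (0.36) and Cd68 (0.38), the last a macrophage lysosomal gene, and S100a6 was most like Plau (0.33), the urokinase gene, then S100a4 (0.42) and Akr1b8 (0.47). S100a10 was closest to Cd24a (0.38), Ecm1 (0.40) and Epha2 (0.41). S100a1 was closest to Rabif (0.17), Acrbp (0.20) and Crb2 (0.22), S100a13 to Tmem134 (0.19), Spsb2 (0.20) and Pfdn1 (0.20), and S100a16 to Wnt5b (0.28), Vegfc (0.34) and Rnase4 (0.35). S100a8 and S100a9 rest on few fragments, and were closest to Mxra8 (0.23) and Hspb1 (0.38). Among pairs of members S100a4 and S100a6 were the closest (0.42), followed by S100a13 and S100a16 (0.46).

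For the libraries as a whole, Nras spanned 82.0 to 154 FPKM in NRAS tumors, 31.7 to 42.9 FPKM in PDGFB tumors and 13.01 to 17.5 FPKM in normal brain. Pdgfb spanned 5.15 to 7.80 FPKM in NRAS tumors, 745 to 1564 FPKM in PDGFB tumors and 6.12 to 7.19 FPKM in normal brain. Each driver was thus highest in the tumors labelled with it. Nras was also called higher in PDGFB tumors than in normal brain (1.29, limma adjusted p = 0.000391). Relative depth, from the low-value steps, ran from 0.931 to 1 in NRAS tumors, 0.851 to 0.889 in PDGFB tumors and 0.775 to 0.814 in normal brain; total counts are not known. Cell lists were counted in NRAS tumors against normal brain, PDGFB tumors against normal brain and NRAS tumors against PDGFB tumors, in that order. Counts are given as higher and lower of those tested. Of all genes, 32.0% and 30.3%, 29.3% and 29.2%, and 14.3% and 12.2% were called higher and lower. The cell cycle list had 10 and 0, 10 and 0, and 0 and 4 of 10; neurons 0 and 10, 0 and 11, and 1 and 0 of 11; oligodendrocytes 0 and 10, 0 and 9, and 0 and 0 of 10. Astrocytes had 2 and 5, 2 and 6, and 3 and 0 of 11; homeostatic microglia 4 and 1, 1 and 3, and 6 and 1 of 10; endothelium and pericytes 5 and 1, 4 and 3, and 3 and 2 of 11. Ependyma and choroid plexus had 0 and 6, 0 and 7, and 2 and 0 of 8, and erythrocytes had no call among 4 in any of the 3 (limma; at an unadjusted p under 0.05 they had 0, 2 and 1). The part of these shifts in the S100A values was not tested.

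Title numbers run from 1834 to 1838 for normal brains 1 to 3 and NRAS tumors 1 and 2, and from 2038 to 2046 for NRAS tumors 3 and 4 and all PDGFB tumors; what the numbers stand for is not given. Within the first series, NRAS tumors against normal brain gave log2 fold changes of 4.39 for S100a11, 3.42 for S100a6, 3.13 for S100a4 and 3.02 for S100a10, all called. Within the second, NRAS tumors against PDGFB tumors gave 2.62 for S100a11, 2.50 for S100a6, 2.45 for S100a4 and 2.49 for S100a10, all called, while S100a16 (0.86, adjusted p = 0.238) was not. PDGFB tumors and normal brain share no series, so series and group are joined there. The series term in the covariate fit therefore comes only from NRAS tumors 1 and 2 against NRAS tumors 3 and 4. With the series as a covariate no member was called in PDGFB tumors against normal brain (at an unadjusted p under 0.05, limma gave 1 higher, S100a11). S100a8 in NRAS tumors against normal brain gave 0.99 with it.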

How the data were processed

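RNA of 11 mouse brain libraries was sequenced from column-kit extracts, per the labels' protocols. Values are FPKM, that is fragments normalised for transcript length and for the total of the library, in 1 table that the authors deposited. TopHat2 2.0.13, Cufflinks 2.2.1 and mm10 are named, per the submitters' processing notes; no source used here gives settings, annotation or strandedness. Since FPKM divides by the library total, abundant transcripts can lower all others; small RNA genes held 10.5% to 42.8% of a library's sum. Of 24347 rows, 27 with names turned into dates were left out. FPKM is not a count, so no count test was run, and total depth is unknown.

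All libraries entered 1 limma 3.58.1 fit (R 4.3.3; lmFit, contrasts.fit, eBayes with trend, two-sided) on log2(FPKM + 1), with a mean per group and the 14491 genes that reached 1 FPKM in 3 or more libraries, adjusted by Benjamini-Hochberg at 0.05. The fit was tested on simulated data. Intervals are 95%. There were 3 comparisons and 22 other settings: pseudocount, filter, scaling, replicate block, title number series, fit and each library left out. Promoters and positions are from RefSeq. Genes named are the 9 members in every sample, the called genes with the largest changes of each list, the 3 genes most like each member and the tested neighbours. S100a5, the low S100 genes, Mpo, Camp, Elane, Ager and the monocyte genes were added after their values were seen. The members and lists were chosen with earlier results of these data known.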

Additional observations from a re-analysis of the deposited data

Results flagged for a closer look

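In the groups of 4 libraries, the highest or lowest library was set against the others by Dixon's criterion (the gap to the nearest library over the group's range, past its 95% critical value), in 18 groups of members and tumor type; chance marks about 1 in 20 groups. S100a11 in NRAS tumor 4, at 944 FPKM, lay apart from the other NRAS tumors, its gap being 0.855 of the range. S100a13 in PDGFB tumor 4, at 70.7 FPKM, lay apart from the other PDGFB tumors, its gap being 0.872 of the range.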

How the results depend on the processing

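In all 22 other settings S100a4, S100a6, S100a10 and S100a11 stayed called higher in NRAS tumors against normal brain and against PDGFB tumors, as did S100a13 against normal brain, with log2 fold changes of 4.25 to 4.95 for S100a11 and 3.13 to 3.79 for S100a4 against normal brain. No member was called lower in any setting with limma (at an unadjusted p under 0.05, 0 in the fit reported and at most 1 in the others). With each library left out in turn, members higher numbered 7 to 8 in NRAS tumors against normal brain, 1 to 4 in PDGFB tumors against normal brain and 4 to 6 in NRAS tumors against PDGFB tumors, and all genes called numbered 7411 to 9375, 6922 to 8844 and 2580 to 4186 in the same comparisons. PDGFB tumors against normal brain fell to 1 member without PDGFB tumor 3 or 4 or normal brain 1 or 3, and reached 4 without PDGFB tumor 2. Within 1 title number series NRAS tumors against normal brain gave 5817 genes called, against 9023, with fewer libraries. With that series as a covariate PDGFB tumors against normal brain gave 4768 genes called, against 8470, and 0 members higher, against 2; the cause was not tested. At an unadjusted p under 0.05, 1 member (S100a11) was higher there in limma.

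Signs turned for changes that were never called: S100a1 in NRAS tumors against normal brain was 0.070 with the series as a covariate and within it, and 0.040 without NRAS tumor 3 (-0.26 to 0.040 over libraries left out); in PDGFB tumors against normal brain S100a8 was -0.51 with the covariate and -0.058 without PDGFB tumor 2 (-0.058 to 0.44), and S100a16 was 0.40 with the covariate, 0.20 without PDGFB tumor 2 and 0.043 without normal brain 1 (-0.33 to 0.20). S100a8 in NRAS tumors against normal brain lost its call in 3 settings, with quantile normalization (adjusted p = 0.0602), the series as a covariate (0.106) and the replicate block (0.0571). S100a16 in NRAS tumors against PDGFB tumors lost its call in 11 of 22 settings. Leaving small RNA genes out gave a median of all genes of -0.12, against 0.01, in NRAS tumors and -0.085, against 0.040, in PDGFB tumors, both set against normal brain.

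Deviations of same-numbered libraries correlated from -0.50 to 0.16 over 10 pairs, against -0.37 to 0.48 over 30 other pairs. The matches in the titles do not follow these numbers and are among the other pairs. NRAS tumor 2 and normal brain 1 correlated at -0.083, and PDGFB tumor 1 and normal brain 3 at 0.127. The replicate block uses the numbers, so the titled matches were not modelled. With the replicate block 6, 2 and 4 members were higher and 8206, 7835 and 3249 genes called in NRAS tumors against normal brain, PDGFB tumors against normal brain and NRAS tumors against PDGFB tumors. With the block S100a16 was also not called in NRAS tumors against normal brain (adjusted p = 0.0562) or against PDGFB tumors (0.0640). At 5 FPKM in 3 libraries, and in NRAS tumors against normal brain within 1 series, S100a8 and S100a9 were not tested, and PDGFB tumors against normal brain could not be run within 1 series. Depth limits S100a8 and S100a9.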
